A study of Mus musculus with 20 samples.

Results

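Meg3, Gas5, Snhg1 and Malat1 are long noncoding RNAs, transcripts that are not templates for a protein, and they were followed through wild-type and FMRP-deficient mouse neurons, in total RNA and in the RNA recovered by FMRP immunoprecipitation. The set was named gene by gene on annotation: the imprinted Meg3, Rian and Mirg locus, the snoRNA host genes Snhg1 and Gas5, and the nuclear RNAs Malat1 and Miat. Of these 7 genes, 4 have rows in the table under their name, with 11 features (probe groups of the array) out of 24551 features in all. Meg3 and Malat1 have 1 feature each, Gas5 has 4 and Snhg1 has 5. Rian, Mirg and Miat were not analysed here. The names were selected on annotation with the measured log2 levels of the 4 groups in view, and no threshold or contrast is stated, so the members' own levels and differences are given as a description, and nothing is supported with them.

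Primary cortical neurons from C57Bl6 mouse embryos of embryonic day 17 were cultured for 8 days and irradiated with ultraviolet light at 254 nm, which links proteins to the RNA they touch, before lysis. The cultures were wild type (WT) or Fmr1 knockout (KO), and both genotypes received the same irradiation and the same immunoprecipitation. From every one of 10 cultures, total RNA (Input) and the RNA recovered with FMRP after crosslinking and immunoprecipitation (CLIP) went onto separate arrays, so the groups WT Input, KO Input, WT CLIP and KO CLIP hold 5 arrays each. Knockout neurons lack FMRP, so KO CLIP is the background of the precipitation, measured in the same way.

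FMRP is an RNA-binding protein of the cytoplasm that represses translation of its target mRNAs. Meg3 is transcribed from the maternal chromosome of the imprinted Dlk1 to Dio3 domain and is abundant in neurons, where much of it stays in the nucleus; the neighbouring transcripts Rian and Mirg carry box C/D snoRNAs and microRNAs. Gas5 and Snhg1 are host genes, whose introns release small nucleolar RNAs (snoRNAs) that guide the chemical modification of other RNAs. Their spliced exons reach ribosomes and are cleared by nonsense-mediated decay. Malat1 is retained in nuclear speckles, bodies rich in splicing factors. In the RefSeq annotation 8 snoRNA genes lie within Gas5 and 8 within Snhg1, and 11 snoRNA and 3 microRNA genes lie within Rian.

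The stretches around the annotated transcription starts are shown because they set the members apart by sequence before any value is read. Each runs 5′ to 3′ from 120 bases before the start to 20 bases after it and comes from RefSeq on GRCm38.p6. Capitals mark the cAMP response element TGACGTCA or its core TGACGT, and the TATA motif TATATA, on either strand.
Meg3 start 1, chr12:109540876-109541015, plus strand: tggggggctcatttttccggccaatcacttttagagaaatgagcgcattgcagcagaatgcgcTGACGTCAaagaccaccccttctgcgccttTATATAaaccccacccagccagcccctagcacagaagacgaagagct
Gas5 start 2, chr1:161035046-161035185, plus strand: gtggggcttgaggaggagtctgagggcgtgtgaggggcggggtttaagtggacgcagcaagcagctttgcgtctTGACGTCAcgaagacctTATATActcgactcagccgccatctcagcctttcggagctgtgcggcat
Malat1, chr19:5802653-5802792, minus strand: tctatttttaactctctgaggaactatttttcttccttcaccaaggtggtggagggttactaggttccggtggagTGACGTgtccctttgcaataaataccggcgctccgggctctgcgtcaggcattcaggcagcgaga
Snhg1, chr19:8723367-8723506, plus strand: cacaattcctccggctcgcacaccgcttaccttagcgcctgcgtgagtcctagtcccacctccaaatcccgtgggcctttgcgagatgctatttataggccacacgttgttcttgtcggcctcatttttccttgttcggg
Meg3 and Gas5 each have 2 annotated starts, and the one shown holds TGACGTCA, at −57 and −46 from the start, followed by TATATA at −27 and −29. Their other starts hold none of these motifs. The core TGACGT, which is part of TGACGTCA, stands at −45 in Malat1. Another Malat1 core, on the opposite strand, lies at −155, outside the stretch shown but inside the wider windows counted next. None of these motifs is in the Snhg1 window. Of 32851 RefSeq promoter windows from 250 bases before to 50 after a start, 1.79% hold TGACGTCA, 7.51% hold TGACGT and 5.67% hold TATATA. These motifs were chosen after the sequences had been read, and a match is no evidence of binding.

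Values are log2 intensities, and a feature's level can be set against itself in another group but not against another feature's. The samples matched their labels by Fmr1, which ran from 5.49 to 6.03 in WT Input and from 6.20 to 6.80 in WT CLIP, against 3.98 to 4.34 in KO Input and 3.81 to 4.03 in KO CLIP. Array medians lay between 5.30 and 5.44, so CLIP values show the makeup of a precipitate, not the amount recovered. All 17 measured neuronal marker genes read above 4 in all 10 Input arrays, the level the authors' deposited mark uses. So did 10 of 10 astrocyte, 9 of 9 oligodendrocyte lineage, 5 of 10 microglia and 6 of 10 endothelial and meningeal markers. For cycling progenitors it was 9 of 9 and for blood 2 of 5. That level is low, since 21226 of 24551 features carry the mark, which asks for 2 arrays. Above the array median in all 10 Input arrays stood 16 of 17 neuronal, 7 of 10 astrocyte and 5 of 9 oligodendrocyte lineage markers. The same held for 1 of 10 microglia, 3 of 10 endothelial and meningeal, 4 of 9 cycling progenitor and 0 of 5 blood markers. Limma called 0 markers between genotypes in either fraction. From Input to CLIP in wild type it called 6 of 17 neuronal markers higher and 1 lower, and 0 of 10 astrocyte markers higher and 6 lower. In knockout the calls were 8 and 1, and 0 and 5, and the part of cell types in the members' differences was not tested. Of all features 17% were called higher and 17.9% lower in wild type, and 16.2% and 19.7% in knockout. In such bulk cultures, fewer cells of a type and less RNA per cell cannot be told apart.

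Meg3 was the RNA with the largest CLIP level over Input of all 24551 features in wild-type neurons, and it stood as far above Input, within the error, in neurons without FMRP. Its Input values in cultures 1 to 5 were 7.51, 7.67, 7.03, 8.00 and 7.62 in wild type. In knockout they were 8.29, 7.74, 8.33, 7.21 and 7.28. The Input groups overlapped, with KO cultures 4 and 5 among the lowest values. CLIP values were 11.46, 10.36, 10.15, 10.76 and 10.43 in wild type. In KO CLIP they were 11.22, 10.66, 10.79, 10.20 and 11.55. Every CLIP array of either genotype lay above every Input array, and the CLIP groups overlapped.

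The CLIP level of Meg3 exceeded Input by 3.07 log2 in wild type (SE 0.27, 95% interval 2.50 to 3.64), which is 8.39-fold, and 0 features had a larger difference. In knockout the difference was 3.12 (SE 0.27, 95% interval 2.55 to 3.69), or 8.67-fold, and 2 features had a larger one. Culture by culture, it was 3.95, 2.70, 3.12, 2.76 and 2.81 in wild type, whereas knockout cultures gave 2.93, 2.93, 2.46, 2.99 and 4.28. The highest values belonged to WT culture 1 and KO culture 5, and none of the 10 cultures fell below 2.46. The wild-type difference minus the knockout difference was −0.05 (SE 0.39), with an interval from −0.86 to 0.76 that leaves room for either sign.

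**Figure D1:**
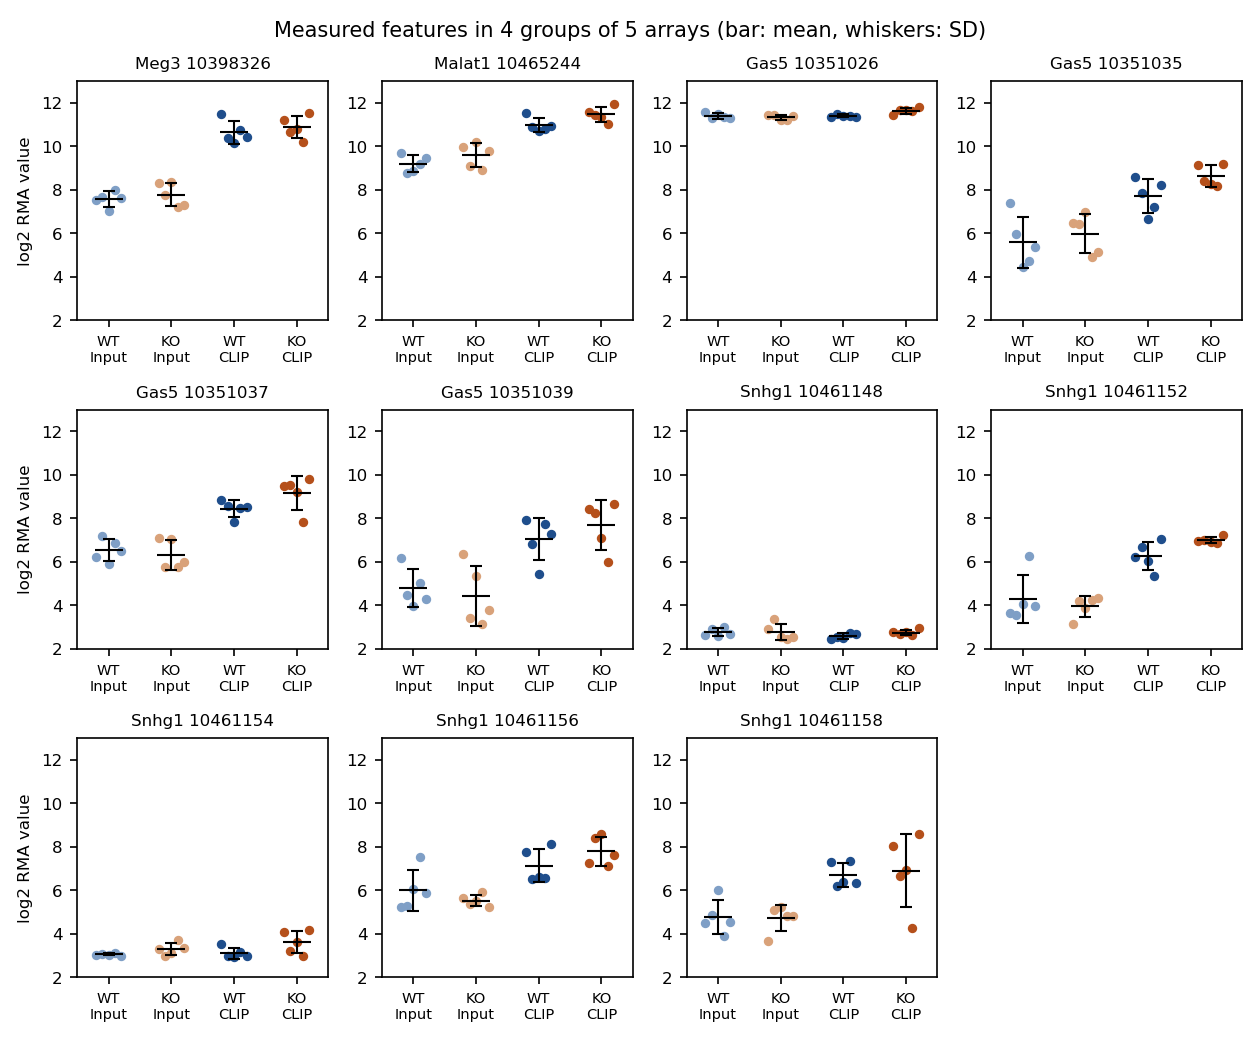
Log2 RMA values of the 11 features in 20 arrays; each point is 1 array, the horizontal bar the group mean and the whiskers the SD of 5 arrays. Meg3 and Malat1 CLIP arrays stand above all Input arrays, while Gas5 feature 10351026 stays near 11.4 in 3 groups and Snhg1 features 10461148 and 10461154 stay near the bottom of the scale.

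Malat1 showed the same order of groups at a smaller distance. Its WT Input values were 9.69, 8.75, 8.86, 9.17 and 9.47. In KO Input they were 9.95, 9.11, 10.17, 8.92 and 9.76. WT CLIP gave 11.54, 10.88, 10.72, 10.81 and 10.93, and all 5 lay above the highest Input array of either genotype. KO CLIP gave 11.59, 11.44, 11.36, 11.00 and 11.96, with culture 4 lowest and culture 5 highest.

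In wild type the CLIP level of Malat1 was 1.79 above Input (SE 0.24, 3.46-fold), with 176 features showing a larger difference. In knockout it was 1.89 above (SE 0.24, 3.71-fold), with 97 larger. The difference per culture ran from 1.46 to 2.13 in wild type and from 1.19 to 2.32 in knockout, so all 10 cultures had it in the same direction. The contrast of the 2 differences was −0.10 (SE 0.33, 95% interval −0.79 to 0.59).

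Gas5 was split by feature. Feature 10351026 differed least between the groups as deposited, with means of 11.39 ± 0.13 in WT Input, 11.33 ± 0.10 in KO Input, 11.40 ± 0.06 in WT CLIP and 11.63 ± 0.13 in KO CLIP (SD, n = 5 each). Its CLIP minus Input was 0.01 (SE 0.09) in wild type and 0.29 (SE 0.09) in knockout, where limma called it. Under quantile normalization the differences were 0.52 and 0.65, both called, still below those of the other features. The other 3 features stood far higher in CLIP. Probe positions within the gene were not used here, so host RNA and released snoRNA cannot be told apart.

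Feature 10351037 held the clearest separation among the Gas5 features. WT Input values were 6.21, 7.18, 5.91, 6.85 and 6.51, and WT CLIP values were 8.84, 8.54, 7.80, 8.47 and 8.51. KO Input values were 7.09, 5.75, 7.06, 5.75 and 5.96, and KO CLIP values were 9.46, 9.52, 9.21, 7.83 and 9.80. In both genotypes all CLIP arrays lay above all Input arrays, and KO CLIP culture 4 stood at 7.83, apart from the other 4 at 9.21 to 9.80. The differences were 1.90 (SE 0.34, 3.72-fold) in wild type and 2.84 (SE 0.34, 7.18-fold) in knockout.

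Feature 10351035 was less even in Input, where wild type gave 7.40, 5.97, 4.43, 4.71 and 5.37 and knockout gave 6.48, 6.41, 6.97, 4.92 and 5.12. WT CLIP values were 8.58, 7.83, 6.65, 7.21 and 8.22, so 2 of them lay below the highest Input array. KO CLIP values were 9.15, 8.41, 8.26, 8.17 and 9.16, all above KO Input. CLIP exceeded Input by 2.12 (SE 0.48) in wild type and 2.65 (SE 0.48) in knockout. Feature 10351039 differed by 2.26 (SE 0.61) and 3.27 (SE 0.61, 9.67-fold), and 1 feature of the table had a larger difference in knockout. Its values spread widely, from 3.15 to 6.36 in KO Input and from 5.96 to 8.67 in KO CLIP, and the groups overlapped in both genotypes. KO Input cultures 2, 4 and 5, at 3.40, 3.15 and 3.77, and WT Input culture 3, at 3.96, read below the level of 4 of the authors' mark. Over the 4 features, the Gas5 mean was 7.07 ± 0.52 in WT Input, 7.01 ± 0.69 in KO Input, 8.64 ± 0.50 in WT CLIP and 9.28 ± 0.58 in KO CLIP (SD, n = 5).

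Snhg1 held 3 features called higher in CLIP in both genotypes and a pair called in neither. Features 10461148 and 10461154 had group means between 2.56 and 3.60, close to the lowest value of the table, 2.11, where log2 differences are compressed. For 10461154 in knockout CLIP minus Input was 0.31 (SE 0.19), above 0 in 4 of 5 cultures, and limma called it at 0.52 under quantile normalization and at 0.46 without KO CLIP culture 4. Feature 10461148 is the single member feature that the authors' deposited table does not mark as above 4 in at least 2 arrays. Feature 10461152 gave 3.64, 3.53, 4.04, 6.25 and 3.95 in WT Input and 3.13, 4.17, 3.86, 4.23 and 4.32 in KO Input. Its WT CLIP values were 6.20, 6.65, 6.02, 5.35 and 7.05. In KO CLIP they were 6.94, 7.01, 6.91, 6.84 and 7.24, a narrow range above all KO Input arrays. The wild-type groups overlapped through WT Input culture 4 alone, in which CLIP was 0.90 lower than Input.

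For that feature CLIP exceeded Input by 1.97 (SE 0.39) in wild type and 3.05 (SE 0.39, 8.28-fold) in knockout, where 3 features had a larger difference. Its KO Input values, 3.13 to 4.32, lay around the level of 4 of the authors' mark. Feature 10461156 differed by 1.13 (SE 0.39) in wild type and 2.26 (SE 0.39) in knockout. WT culture 4 was again apart, with an Input value of 7.52 against 5.21 to 6.06 in the other 4 WT Input arrays. Feature 10461158 differed by 1.96 (SE 0.56) and 2.18 (SE 0.56). In KO culture 4 its CLIP value, 4.24, lay below its Input value, 4.80, while the other 4 KO CLIP arrays read 6.67 to 8.59. Over the 5 features, the Snhg1 mean was 4.16 ± 0.38 in WT Input, 4.04 ± 0.19 in KO Input, 5.15 ± 0.27 in WT CLIP and 5.60 ± 0.50 in KO CLIP (SD, n = 5).

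**Figure D2:**
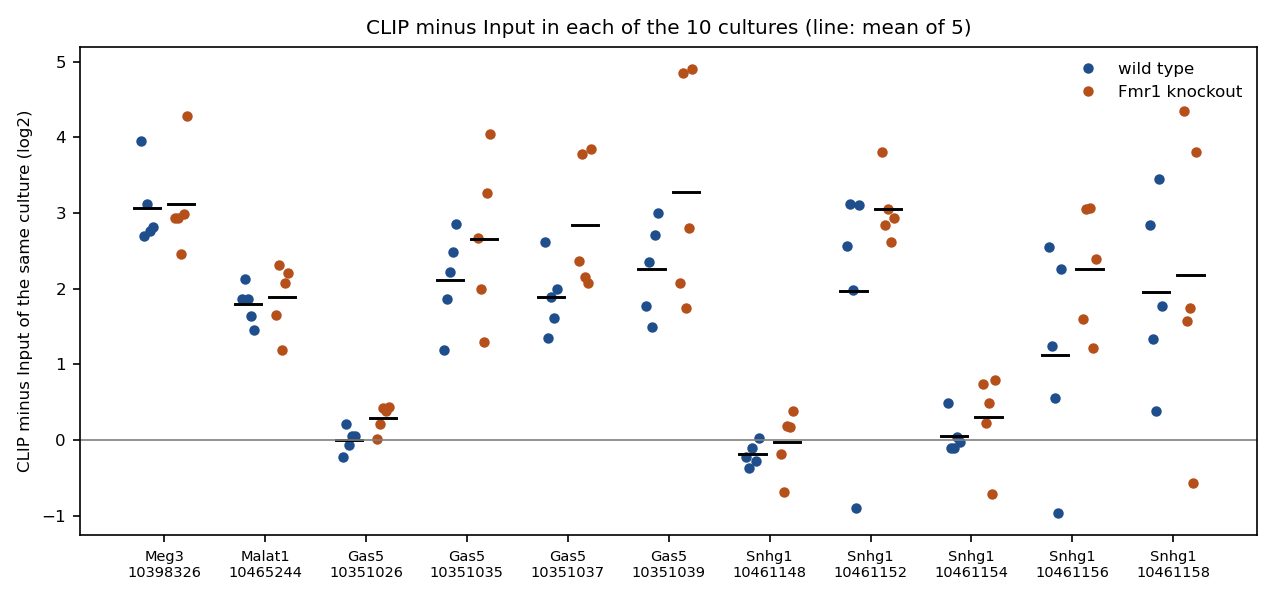
CLIP minus Input of the same culture on the log2 scale for each of the 11 features, with wild type in blue and Fmr1 knockout in orange; points are cultures and lines the means of 5. Meg3, Malat1 and 3 Gas5 features lie above 0 in all 10 cultures, and single cultures fall below 0 for Snhg1 features 10461152, 10461156 and 10461158.

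Counted over the members, limma (adjusted p under 0.05 over all features) called 8 of 11 features higher in CLIP than in Input in wild type and 0 lower, where 17% of all features were called higher. In knockout it called 9 of 11 higher and 0 lower, against 16.2% of all. The CLIP arrays lay wholly above the Input arrays for 4 of 11 features in wild type (12.5% of all) and 6 of 11 in knockout (10.3% of all). The median difference of the members was 1.90 in wild type and 2.26 in knockout, beside −0.09 and −0.13 over all features. The rule had these 4 groups in view and features of a gene share their transcript, so nothing is read from these counts. The call of Snhg1 feature 10461156 in wild type was lost in 7 of 26 alternative fits, with limma adjusted p up to 0.0948 when WT CLIP culture 5 was left out.

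**Figure D3:**
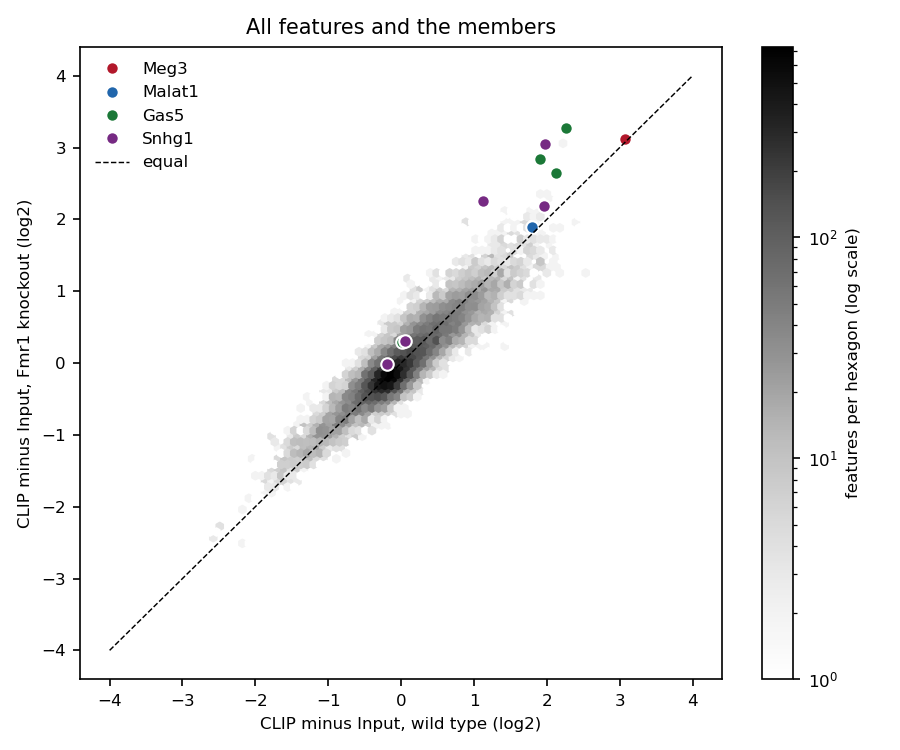
CLIP minus Input on the log2 scale in wild type (x axis) and in Fmr1 knockout (y axis) for all features, shaded by number per hexagon on a log scale, with the members coloured by gene and the line of equality dashed. Meg3 is farthest to the right at 3.07, and among the members 3 Gas5 and 2 Snhg1 features lie farthest above the line.

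Between genotypes, no member passed the test, and all 11 stood lower in wild-type than in knockout precipitates. In CLIP, wild type minus knockout ran from −0.93 to −0.17 with a median of −0.49, while 44.1% of all features were below 0 and the median of all was 0.02. Limma called 0 of 11 (lowest adjusted p = 0.469, 5 against 5 cultures, two-sided), where it called 0.110% of all features. At an unadjusted p under 0.05 stood 6 of the 11, beside 7.15% of all. The WT CLIP and KO CLIP arrays overlapped for every one of the 11 features. The direction was not particular to the members. Among the lists described below, 9 of 38 features of other snoRNA hosts were above 0 (median −0.19). All 10 features of Taf1d were below 0 and all 5 of Rpsa above 0, so features are not counted as genes. For other long noncoding RNAs 6 of 22 were above 0 (median −0.07). Of the 571 other features described as noncoding RNA, 309 were above 0 (median 0.01).

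Gas5 feature 10351035 had the lowest genotype difference of the whole table, −0.93 (SE 0.34, 95% interval −1.67 to −0.20), with 24550 features above it. Its WT CLIP mean was 7.70 ± 0.78 and its KO CLIP mean 8.63 ± 0.49 (SD, n = 5). Gas5 feature 10351037 differed by −0.73 (SE 0.32) and Snhg1 feature 10461152 by −0.74 (SE 0.25). For Malat1 the difference was −0.49 (SE 0.18, 95% interval −0.90 to −0.09), and for Meg3 −0.25 (SE 0.27, 95% interval −0.85 to 0.34). The Meg3 value was −0.09 without KO CLIP culture 5 and −0.46 without WT CLIP culture 1. None of these passed after adjustment, and a p that misses the threshold does not show equal levels.

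A pair of arrays moved with these differences. Among the 5 KO CLIP arrays, culture 5 was highest for 10 of the 11 features and culture 4 lowest for 10. The members' median difference was −0.37 without KO CLIP culture 5 and −0.77 without KO CLIP culture 4. Without culture 5, and also without KO CLIP culture 1, 10 of 11 were below 0, since Snhg1 feature 10461158 turned to 0.24 and 0.10. In the other 8 refits that left out 1 array, all 11 stayed below 0. The part of single precipitates in the result was not tested further.

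In Input the members showed no shared direction. Knockout minus wild type ran from −0.47 to 0.40, with 5 of 11 features above 0. Limma called 0 of 11, the lowest adjusted p was 1 and 0 of 11 reached an unadjusted p under 0.05, beside 0.00407% called and 3.86% of all features at that unadjusted p. The estimate for Meg3 was 0.20 (SE 0.24), for Malat1 0.39 (SE 0.25), for Gas5 feature 10351037 −0.21 (SE 0.32) and for Snhg1 feature 10461152 −0.34 (SE 0.44).

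The interaction, CLIP minus Input in wild type less the same in knockout, was below 0 for all 11 features, from −1.13 to −0.05, where 44.7% of all features were below 0. It was above 0 for 8 of 38 features of other snoRNA hosts, 8 of 22 of other long noncoding RNAs and 300 of 571 other noncoding features. Among mRNA lists described below, it was above 0 for 2 of 24 features of nuclear speckle and paraspeckle proteins (median −0.27). For mRNAs with a terminal oligopyrimidine tract it was above 0 for 16 of 35. Some genes, such as Taf1d, enter these counts with several features. Limma called 0 of 11 (lowest adjusted p = 1; 0.0204% of all called), and 1 of 11 had an unadjusted p under 0.05 (4.46% of all). Snhg1 feature 10461156 had the lowest value, −1.13 (SE 0.55), and Snhg1 feature 10461152 followed at −1.08 (SE 0.55). When single arrays were left out the sign turned for Meg3, Malat1 and Snhg1 feature 10461158, whose highest values were 0.12, 0.07 and 0.20. This contrast uses the same CLIP arrays as the genotype comparison, so the signs are not separate evidence.

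**Figure D4:**
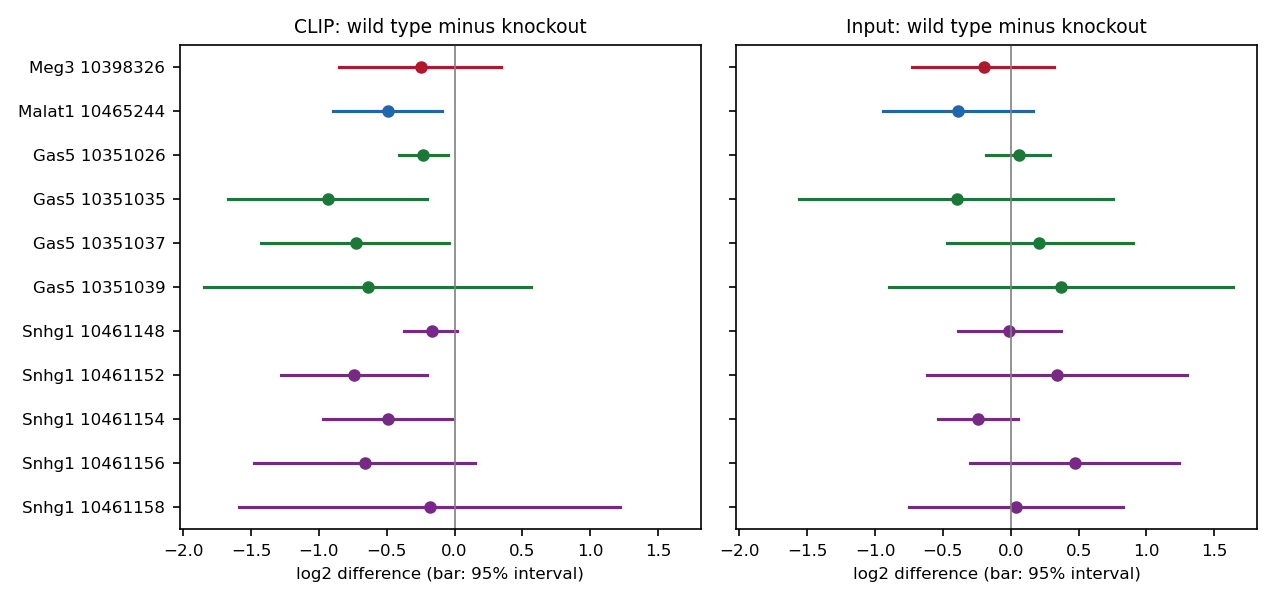
Wild type minus knockout on the log2 scale in CLIP (left) and in Input (right, turned to the same direction) for the 11 features, coloured by gene; points are limma estimates and bars 95% intervals over 5 against 5 cultures. In CLIP all 11 points lie left of 0, from −0.93 to −0.17, and several intervals cross 0; in Input the points lie on both sides.

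The features around Meg3 in the Dlk1 to Dio3 domain were gathered after the table had been seen, and the choice of members already named this locus. RefSeq places 61 microRNA, 19 snoRNA, 16 long noncoding, 4 pseudogene and 3 protein-coding genes there. The table holds 7 features of 5 of these genes beside Meg3: Dlk1, which encodes a Notch-related membrane protein, Rtl1, derived from a retrotransposon, Dio3, a deiodinase of thyroid hormone, and the snoRNA genes AF357355 and AF357341. AF357355 lies inside Rian. Limma called 1 of the 7 features higher in CLIP in wild type and 2 in knockout, and 0 lower in either. These are 14.3% and 28.6%, beside 17% and 16.2% of all features called higher.

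AF357355 read 5.74, 7.99, 3.85, 6.15 and 5.37 in WT Input, and 7.43, 7.75, 4.71, 5.95 and 5.00 in KO Input. Its WT CLIP values were 8.45, 7.80, 8.41, 8.36 and 8.54, all but 1 above every Input array. KO CLIP gave 8.95, 8.48, 8.11, 8.63 and 9.50, above every Input array. It rose in CLIP by 2.49 in wild type (SE 0.59, limma adjusted p = 0.00203) and by 2.57 in knockout (SE 0.59, limma adjusted p = 0.00183). Its genotype difference in CLIP, −0.42, did not pass (limma adjusted p = 0.807).

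The protein-coding genes of the domain did not share this size of difference. Rtl1 feature 10402606 rose by 0.64 in knockout (SE 0.18, limma adjusted p = 0.0084), and its value in wild type was 0.24 (SE 0.18, limma adjusted p = 0.307). The other Rtl1 features passed in neither genotype. Feature 10398344 gave 0.42 in wild type (limma adjusted p = 0.0871) and 0.42 in knockout (limma adjusted p = 0.0855). Feature 10398348, near the bottom of the scale, gave −0.18 and −0.17. In RefSeq the span of Rtl1 overlaps those of Meg3 and Rian. For Dlk1 CLIP minus Input was −0.12 (SE 0.18) in wild type and −0.21 (SE 0.18) in knockout, and neither passed. The features of Dio3 and AF357341 were not called in either genotype.

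**Figure D5:**
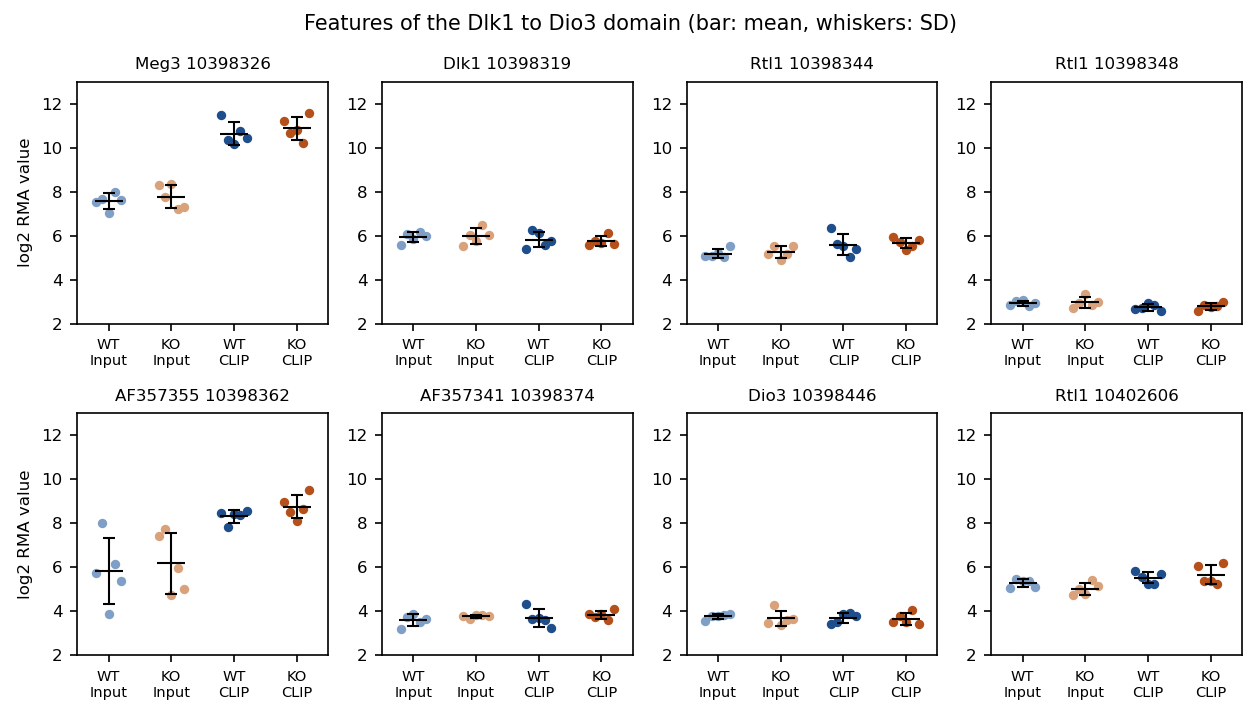
Log2 RMA values of Meg3 and of the 7 other measured features of the Dlk1 to Dio3 domain in the 4 groups; points are arrays, bars group means and whiskers the SD of 5 arrays. Meg3 and the snoRNA gene AF357355 stand higher in CLIP than in Input in both genotypes, while the 4 groups of Dlk1 and of Dio3 overlap.

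Other noncoding features had medians near those of the whole table. Of the 571 other features described as noncoding RNA, limma called 57 higher and 110 lower in CLIP in wild type, and 72 higher and 119 lower in knockout. These are 9.98% higher and 19.3% lower in wild type, where 17% of all features were higher and 17.9% lower. In knockout they are 12.6% and 20.8%, beside 16.2% and 19.7% of all. Their median difference was −0.13 in wild type and −0.16 in knockout, beside −0.09 and −0.13 for all features. The largest in wild type were features of 4933409K07Rik, a gene with several features of near-equal values, led by feature 10504148 at 1.88 (SE 0.27, limma adjusted p = 1.34e-05). In knockout that feature differed by 1.41 (limma adjusted p = 0.00041). Such features may share probes and are not counted as separate genes. 4933409K07Rik gave 10 of the 57 higher calls in wild type, and Gm3002 gave 12 of the 72 in knockout. Gm12191 gave 10 of the lower calls in each genotype. Of 498 genes, 47 had a feature called higher in wild type and 50 in knockout, and 87 and 97 had one called lower. The class follows the deposited descriptions, so it also holds pseudogenes such as Vmn1r-ps79 and names of protein-coding genes such as Asb7.

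Among 22 features of 14 other long noncoding RNAs, 1 passed higher and 1 lower in wild type, and 5 and 2 in knockout. These are 4.55% and 4.55% in wild type, beside 17% and 17.9% of all features. In knockout they are 22.7% and 9.09%, beside 16.2% and 19.7%. Tug1, a nuclear and cytoplasmic RNA of neural tissue, rose in CLIP by 1.38 in wild type (SE 0.25, limma adjusted p = 0.00015) and by 0.79 in knockout (SE 0.25, limma adjusted p = 0.0167). The opposite direction was seen for 2610017I09Rik, which fell by 1.09 in wild type (SE 0.21, limma adjusted p = 0.000346) and by 1.04 in knockout (SE 0.21, limma adjusted p = 0.000717). Xist, the RNA that silences an X chromosome, spread widely between arrays and did not pass (0.77 in wild type and 0.73 in knockout, SE 1.25). The list also holds Ptprv, a phosphatase gene.

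Other snoRNA hosts differed gene by gene. Of 38 features of 17 genes, 10 passed higher and 10 lower in wild type, and 13 and 9 in knockout, with medians of −0.01 and 0.15. The shares were 26.3% and 26.3% in wild type, beside 17% and 17.9% of all features. In knockout they were 34.2% and 23.7%, beside 16.2% and 19.7%. Taf1d alone gave 8 of the 10 higher features in wild type and 8 of the 13 in knockout, and counted by distinct profiles 7 were higher and 10 lower in wild type. Genes with a feature called higher numbered 3 in wild type and 6 in knockout, and genes with one called lower 5 and 4. Taf1d, which encodes a subunit of a factor for RNA polymerase I and hosts snoRNAs, was highest, with feature 10583297 up by 1.46 in wild type (SE 0.33, limma adjusted p = 0.00142) and 2.14 in knockout (SE 0.33, limma adjusted p = 3.82e-05). Its 10 features hold 7 distinct profiles, since several have identical values. Ncl, the gene of nucleolin, rose by 0.91 in wild type (feature 10356312, SE 0.18, limma adjusted p = 0.000334) and by 1.38 in knockout (limma adjusted p = 4.6e-06). Its second feature, 10348070, did not pass in wild type (0.09, SE 0.16, limma adjusted p = 0.661) or in knockout (−0.04, limma adjusted p = 0.859). Rpsa encodes a ribosomal protein, and its 5 features are placed on different chromosomes. Feature 10373569, on chromosome 10, fell by 1.23 in wild type (SE 0.14, limma adjusted p = 5.44e-07) and by 1.21 in knockout (limma adjusted p = 1.02e-06). Feature 10590253, on chromosome 9, gave −0.28 in wild type (limma adjusted p = 0.0291) and −0.40 in knockout (limma adjusted p = 0.00312). Feature 10385034, on chromosome 11, gave −0.01 and −0.13 and did not pass. Of the 5 features 4 passed lower in each genotype. Pseudogene copies could share the probes, so the size of the fall for the Rpsa mRNA is not settled.

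Gas5 and Snhg1 are classed with RNAs that start with a terminal oligopyrimidine tract, as are mRNAs of the translation machinery. At the annotated Snhg1 start shown above, an A soon interrupts the pyrimidines. Of 35 features of 19 mRNAs with such a tract, 4 passed higher and 14 lower in wild type, and 6 and 13 in knockout. That is 11.4% higher and 40% lower in wild type, beside 17% and 17.9% of all features. In knockout it is 17.1% and 37.1%, beside 16.2% and 19.7%. Btf3, a subunit of the nascent-polypeptide-associated complex, fell in wild type by 1.25 (feature 10411448, SE 0.14, limma adjusted p = 8.34e-07) and by 0.46 at its other feature. In knockout the falls were 1.23 (limma adjusted p = 1.57e-06) and 0.24, and the latter did not pass. Eif4b, a helper of the eIF4A helicase, rose by 0.89 in wild type (SE 0.14, limma adjusted p = 3.48e-05) and by 0.74 in knockout (limma adjusted p = 0.00036). Pabpc1, the poly(A)-binding protein gene, rose by 0.88 in wild type (SE 0.14, limma adjusted p = 4.52e-05) and by 0.77 in knockout (limma adjusted p = 0.000264).

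The mRNAs of proteins found with Malat1 in nuclear speckles, or in the neighbouring paraspeckles, were measured by 24 features of 17 genes. In wild type 8 passed higher, 3 passed lower and 13 did not pass, or 33.3% and 12.5% beside 17% and 17.9% of all features. In knockout 12 passed higher and 0 lower, or 50% and 0% beside 16.2% and 19.7% of all features. The medians were 0.19 in wild type and 0.38 in knockout. Srrm2, a scaffold of speckles, rose by 1.62 in wild type (SE 0.14, limma adjusted p = 3.74e-08) and 1.57 in knockout (SE 0.14, limma adjusted p = 1.27e-07). Srrm1, a splicing coactivator, rose by 1.41 and 2.04, and Son, a splicing cofactor, by 1.26 and 1.45. Between genotypes in CLIP, 1 of the 24 features was above 0, with a median of −0.29, and 0 passed.

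Imprinted genes elsewhere were mixed. Of 42 features of 41 genes, with Begain counted below, 10 passed higher and 3 lower in wild type, and 11 and 6 in knockout. The shares were 23.8% and 7.14% in wild type, beside 17% and 17.9% of all features. In knockout they were 26.2% and 14.3%, beside 16.2% and 19.7%. Zdbf2, a large paternally expressed gene, rose by 1.41 in wild type (SE 0.15, limma adjusted p = 4.75e-07) and by 0.84 in knockout (limma adjusted p = 0.000275). Ppp1r9a, the gene of the synaptic actin-binding protein neurabin, rose by 1.29 in wild type (SE 0.13, limma adjusted p = 2.13e-07) and by 1.13 in knockout (limma adjusted p = 1.56e-06). Zim1, a zinc-finger gene, rose by 1.25 in wild type (SE 0.22, limma adjusted p = 0.000143) and by 1.20 in knockout (limma adjusted p = 0.000289). Coding genes in or near the Dlk1 to Dio3 domain numbered 13, with 19 features. Of these, 5 passed higher and 1 lower in wild type, and 8 and 0 in knockout. The shares were 26.3% and 5.26% in wild type, beside 17% and 17.9% of all features. In knockout they were 42.1% and 0%, beside 16.2% and 19.7%. Dync1h1, the heavy chain of cytoplasmic dynein, led in wild type at 1.28 (SE 0.14, limma adjusted p = 6.51e-07). Begain, a postsynaptic protein gene, rose by 0.81 in wild type (SE 0.15) and by 0.52 in knockout (SE 0.15). Ppp2r5c, a subunit of protein phosphatase 2A, rose in wild type by 0.80 and 0.56 at 2 of its 4 features, while the others, at 0.21 and 0.12, did not pass. In knockout the same features gave 0.98, 0.50, 0.57 and 0.19, and all but the last passed. In the genotype comparisons and the interaction, 0 features of these lists passed.

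Across the 20 arrays, the genes whose pattern was most like each member were mRNAs. By Pearson's r with the mean of a member's features, Flna (0.99), an actin crosslinker, and Ryr3 (0.988), a calcium release channel, were nearest to Meg3. Gcfc1 and Grin2b, the latter an NMDA receptor subunit (both 0.977), were nearest to Malat1. Gria2 (0.979), an AMPA receptor subunit, and Fnbp1l (0.975), a membrane-curving protein gene, were nearest to Gas5, and Upf2 (0.94), a factor of nonsense-mediated decay, and Pxdn (0.936), a peroxidasin gene, to Snhg1. Between the members r ran from 0.834 to 0.954. All these values follow mainly the step from Input to CLIP that the arrays share, and are given as a description.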

How the data were processed

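The deposited table holds log2 values that the authors made by robust multi-array averaging (RMA) in Affymetrix Expression Console 1.1, per the submitters' processing notes; no genome build is stated in the labels used. Amplification and biotin labelling used NuGEN kits, per the labels' protocols. After 7 summary lines were left out, 24551 features with 21300 symbols in 20 arrays remained (lowest correlation between arrays 0.904). The array name in the labels and the form of the feature identifiers differ, so values are used by feature only. No detection calls were used, and the number of arrays limits precision.

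Members, gene lists and tests were chosen with earlier results of these data known. The classes of other noncoding features and of Dlk1 to Dio3 features were added after the table was seen. Differences were estimated in R 4.3.3 by limma 3.58.1 (a linear model per feature with a moderated spread, two-sided, Benjamini-Hochberg over all features, adjusted p under 0.05). Genotypes were compared on the 10 arrays of a fraction, with wild type minus knockout for CLIP and the opposite sign for Input. The fraction contrasts and the interaction used all 20 arrays with 1 mean per group. The sample titles give numbers and name no culture. The authors' deposited log2 ratios subtract the arrays of one number within a genotype (largest difference 0). On that ground, the CLIP and the Input array of one number were taken to share 1 culture. Their residuals correlated at 0.243, 0.26, 0.259, 0.0908 and 0.0599 in wild type, and for knockout at 0.221, −0.128, 0.224, 0.455 and 0.0688.

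All members are named by feature. So are the 2 non-member symbols of highest r with each member, up to 3 genes of largest CLIP minus Input in wild type from each list, all measured domain genes, and Fmr1. Ptprv is named outside this rule, since it is no noncoding RNA. Of the noncoding features, 4933409K07Rik alone is described by its values, and Gm3002, Gm12191, Vmn1r-ps79 and Asb7 are named for their calls or their kind. On artificial data, limma found 42%, 88% and 100% of 50 features each that were shifted by 0.5, 1 and 2 log2 in the CLIP genotype comparison. Those data had noise that was independent between features and arrays, and all sizes were shifted together. The rates therefore need not hold for the members. Alternatives covered scaling, a filter, the variance prior, blocks, samples in the fit, 1 value per symbol and arrays left out.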

Additional observations from a re-analysis of the deposited data

Results flagged for a closer look

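Each member feature was checked in each group for a single array far from the other 4, which chance finds in about 1 in 20 groups; 3 of 44 groups held one. Malat1 in wild-type CLIP stood at 11.54 in culture 1, against 10.72 to 10.93 in the other 4 arrays. Without that array its CLIP minus Input in wild type was 1.65. Snhg1 feature 10461152 in wild-type Input stood at 6.25 in culture 4, against 3.53 to 4.04 in the others. Without it the difference in wild type rose from 1.97 to 2.46. Snhg1 feature 10461158 in knockout Input stood at 3.66 in culture 1, against 4.79 to 5.20 in the others.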

How the results depend on the processing

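For the members, 1200 values were recomputed under the alternatives: 1197 moved by less than the spread between replicates and 0 called values changed sign. The other 3 are Gas5 feature 10351026 under quantile normalization, at 0.52 in wild type, 0.65 in knockout and −0.13 in the interaction. Quantile normalization moved the median of all features in knockout CLIP minus Input from −0.13 to −0.02. Features called between genotypes in CLIP numbered 27, and 14 under quantile normalization, 8 under median centring, 13 with a trended robust prior, 3 with the replicate number as a block and 4 to 61 without 1 array. In Input they numbered 1, and 3 with all 20 arrays in the fit. Interaction calls numbered 5, and 9, 3, 3, 2 and 2 under quantile normalization, median centring, a mean above 5, the culture as replicate block and own groups only, and 3 to 8 without 1 array. With 1 value per symbol, limma called 4 of 4 member genes in each genotype, in place of 8 and 9 of 11 features. The share of all symbols called in that fit is not given here, and nothing is read from this count. Without 1 array, the called members were 7 to 8 in wild type and 8 to 10 in knockout. Features called over the whole table, higher and lower together, then numbered 7144 to 9033 and 7061 to 10114. Gas5 feature 10351026 lost its knockout call without KO CLIP culture 5 (limma adjusted p = 0.0529). Snhg1 feature 10461154 gained one without KO CLIP culture 4 (limma adjusted p = 0.0449) and under quantile normalization (limma adjusted p = 0.0471), which also gave Gas5 feature 10351026 a wild-type call. The culture block changed no member call (8 and 9). Wild-type and knockout arrays were not treated as pairs by number: residual correlations for numbers 1 and 2 were 0.442 and 0.19 in CLIP and 0.547 and 0.362 in Input, and those for the other numbers were below 0, down to −0.266. The causes were not tested.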
